A study of Homo sapiens with 6 samples.

Results

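Collagen molecules are modified by 2 groups of enzymes, which hydroxylate their prolines and lysines inside the cell and crosslink them outside it. The 10 genes described here were taken by name from the gene table: the lysyl oxidases LOX, LOXL1, LOXL2, LOXL3 and LOXL4, the lysyl hydroxylases PLOD1, PLOD2 and PLOD3, and the catalytic subunits P4HA1 and P4HA2 of prolyl 4-hydroxylase. All 10 were found among the 33900 genes listed, and all 10 passed the filter on low values that left 14178 genes for testing. A rise of LOX and a fall of most stellate cell activation genes were already known from these data when the genes were chosen.

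RNA sequencing compared LX-2 cells treated with recombinant human Sema3C (rhSema3C), a secreted semaphorin, at 300 ng/ml for 48 h with LX-2 cells given PBS for the same time, with 3 samples in each group. LX-2 is an immortalised human line derived from hepatic stellate cells, labelled as wild type in both groups, so the results describe a single cultured line. The total count per sample lay between 68267808 and 89245585. The labels call the samples biological replicates without saying whether they came from separate cultures, so the p-values measure the spread between these samples. Of 10 markers of stellate cells, VIM, COL1A1, COL3A1, ACTA2, PDGFRB and HAND2 passed the filter on low values. DES, LRAT, PDGFRA and RELN lay below it, with DES and LRAT at or near 0. The summed FPKM of this list was 1147 to 1207 with PBS and 910.1 to 970.0 with rhSema3C, and 4 of the 6 genes tested were lower, among them VIM at -0.41 on the log2 scale, 1 higher and 1 not called. Among markers of other liver cells, ALB and PTPRC were at or near 0. Tested were 1 of 7 hepatocyte, 2 of 5 epithelial, 1 of 5 endothelial and 2 of 5 macrophage markers (SERPINA1, KRT7 and SOX9, KDR, CD68 and CD14). The hepatocyte markers TTR and CYP3A4 were not among the genes listed. The summed FPKM of the macrophage list was 95.03 to 103.8 with PBS and 67.2 to 73.0 with rhSema3C, nearly all from CD68, and that of the epithelial list was 12.4 to 14.7 and 8.60 to 9.32. The hepatocyte list went the other way, from 2.67 to 3.16 with PBS and from 3.52 to 4.16 with rhSema3C, and the endothelial list had 0.802 to 1.06 and 1.27 to 1.70. That endothelial rise came mostly from VWF, below the filter, with an FPKM of 0.0914, 0.0902 and 0.120 with PBS and 0.677, 0.542 and 0.760 with rhSema3C. KDR was not called, at -0.10 on the log2 scale. The part of these markers in the results was not tested. In bulk RNA, fewer cells expressing a gene and less of its RNA per cell cannot be told apart.

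Prolyl 4-hydroxylase converts prolines of the collagen chains to 4-hydroxyproline, without which the triple helix is not stable at body temperature. Lysyl hydroxylases prepare lysines for glycosylation and crosslinking, and PLOD2 acts on the telopeptides at the ends of the molecule. Both kinds of hydroxylase work in the endoplasmic reticulum and need iron, 2-oxoglutarate, oxygen and ascorbate. Lysyl oxidases are secreted copper enzymes that oxidise lysines and hydroxylysines of collagen and elastin to aldehydes, from which crosslinks form. In fibrotic liver, activated stellate cells are a main source of collagen and of these enzymes, and P4HA1, P4HA2, PLOD2, LOX and LOXL2 are known targets of hypoxia-inducible factors in other cells.

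P4HA1 and LOX were more than 2-fold higher with rhSema3C, P4HA2 rose less, and LOXL1, LOXL2, PLOD1 and PLOD3 fell. LOXL3, LOXL4 and PLOD2 did not pass the test. At an adjusted p below 0.05 in edgeR's quasi-likelihood test, 3 of the 10 genes were higher and 4 lower, where 31.7% of all genes tested were higher and 30.6% lower. Since 62.3% of all genes tested passed in either direction, 7 of 10 is close to the background. The study's own rule asks for more than a 2-fold change with an unadjusted p under 0.05. P4HA1 and LOX met it, 2 of 10 genes, beside 5.54% of all genes tested, of which 3.42% were higher and 2.12% lower. The rise of LOX was known when the genes were chosen, so this count only describes the set and is no sign of an excess. The balance of calls over all genes depends on the fit, with 4490 genes higher and 4339 lower here, and 5641 and 3433 with library size alone as the scaling. With limma in place of edgeR it was 5477 and 3461 on log2(FPKM + 1) and 6934 and 2428 on log2(TPM + 1). None of the 10 fell by more than 2-fold. Ordered by fold change from the largest rise, P4HA1 ranked 283 and LOX ranked 446 among the 14178 genes.

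**Figure D1:**
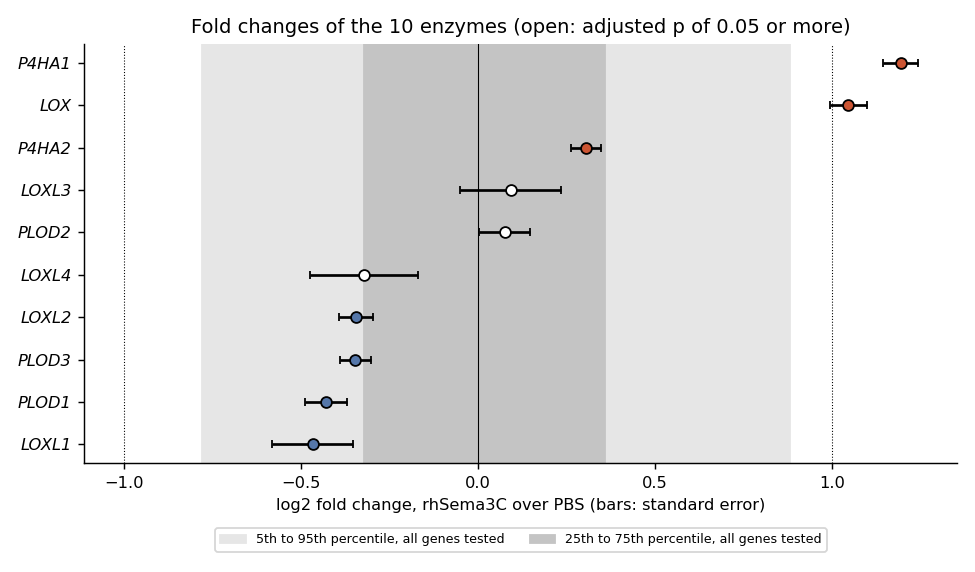
Log2 fold changes of the 10 enzymes, rhSema3C over PBS, with standard errors as bars and the spread of all genes tested as grey bands. P4HA1 at 1.19 and LOX at 1.05 lie to the right of the dotted line that marks a 2-fold rise, and LOXL1 at -0.47 is the lowest, with a wider bar.

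P4HA1 (ENSG00000122884, chr10:73007217-73096974, minus strand) encodes the alpha 1 subunit of prolyl 4-hydroxylase. Its CPM, the count scaled to library size with TMM factors, was 57.8, 54.5 and 52.1 for PBS samples 1 to 3, against 123.4, 127.4 and 125.1 for rhSema3C samples 1 to 3. All treated samples exceeded all controls, and within each group the samples lay close together. Mean CPM was 54.8 ± 2.88 with PBS and 125.3 ± 2.03 with rhSema3C (SD, n = 3 per group), which is 2.29-fold higher. On the log2 scale the difference was 1.19 (SE 0.048, adjusted p = 8.91e-09 in edgeR).

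P4HA2 (ENSG00000072682, chr5:132191838-132295315, minus strand) encodes the alpha 2 subunit, which pairs with the same beta subunit. It had 442.0, 470.0 and 444.7 CPM with PBS against 571.8, 546.8 and 557.4 CPM with rhSema3C. The groups did not overlap, but the rise was smaller than that of P4HA1, at 1.24-fold. Its log2 fold change was 0.30 (SE 0.042, adjusted p = 7.18e-05 in edgeR).

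FPKM values, which the authors scaled to gene length and library size, allow paralogs to be compared within a sample. P4HA1 made up 26.4%, 24.2% and 24.3% of the summed FPKM of P4HA1 and P4HA2 with PBS, and 37.2%, 39.0% and 38.1% with rhSema3C. The share of P4HA1 was higher in every treated sample than in any control, by 13.2 percentage points on average (exact permutation test, two-sided p = 0.1, the lowest that groups of 3 can give). The summed FPKM of both subunits was 66.8 ± 1.42 with PBS and 107.5 ± 0.691 with rhSema3C (SD, n = 3 per group). The level of the share depends on gene length. The deposited FPKM of P4HA2 implies a length of 8702 bases, while its longest coding transcript in GENCODE 29 has 3349, and 3167 against 2844 bases for P4HA1. With the transcript lengths in place of the implied ones, the share of P4HA1 was 12.5% ± 0.742 with PBS and 20.9% ± 0.637 with rhSema3C (SD, n = 3 per group). In CPM per kilobase of these transcripts, the sum of both subunits was 154.3 ± 4.53 with PBS and 210.9 ± 3.05 with rhSema3C. The ratio of the means was then 1.37, beside 1.61 in FPKM.

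P4HB, the beta subunit, which is also protein disulfide isomerase, fell by 0.25 on the log2 scale while both alpha subunits rose (SE 0.038, adjusted p = 0.000157 in edgeR). With limma on FPKM rescaled to TPM, P4HB had -0.025 and did not pass, while it passed in the other 16 of 17 fits. The remaining alpha subunit gene, P4HA3, lay below the filter on low values, with an FPKM between 0.0644 and 0.186 in the 6 samples.

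**Figure D2:**
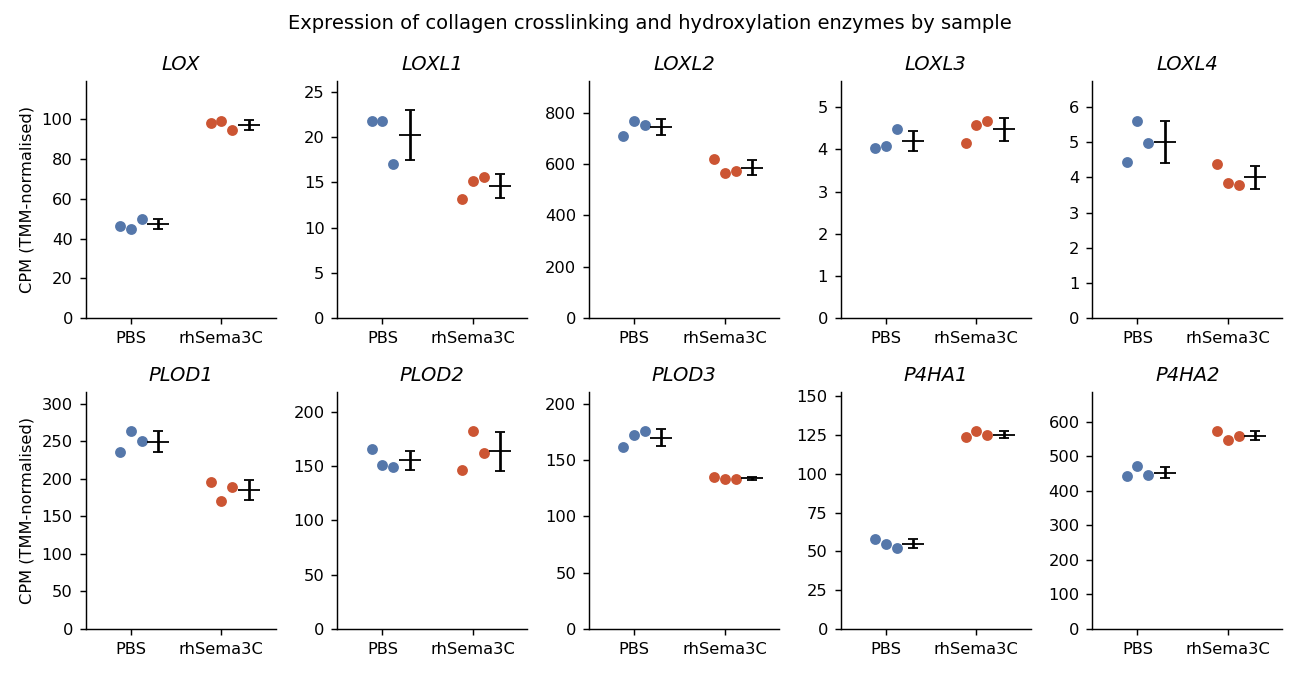
CPM of each enzyme in the 3 PBS samples (blue) and the 3 rhSema3C samples (red), each panel from 0, with the mean and SD beside the points. The groups are apart in P4HA1, P4HA2, LOX, LOXL1, LOXL2, LOXL4, PLOD1 and PLOD3, and overlap in PLOD2 and LOXL3. They are also apart in 67.8% of all genes tested.

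PLOD1, PLOD2 and PLOD3 are the 3 lysyl hydroxylases, of which PLOD3 also has glycosyltransferase activity. PLOD1 (ENSG00000083444, chr1:11934205-11966414, plus strand) had 235.1, 263.1 and 249.5 CPM with PBS against 195.8, 170.9 and 188.4 CPM with rhSema3C. PLOD3 (ENSG00000106397, chr7:101205977-101218366, minus strand) had 161.7, 172.5 and 175.5 CPM with PBS and 134.7, 132.8 and 133.4 CPM with rhSema3C. Both fell without overlap between the groups, and the rhSema3C samples of PLOD3 varied least of all 10 genes, with a coefficient of variation of 0.726%. PLOD1 fell by 0.43 on the log2 scale (SE 0.058, adjusted p = 6.66e-05 in edgeR) and PLOD3 fell by 0.35 (SE 0.043, adjusted p = 3.2e-05 in edgeR).

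PLOD2 (ENSG00000152952, chr3:146069440-146161184, minus strand) did not pass the test. It had 165.9, 151.0 and 149.4 CPM with PBS against 146.5, 182.3 and 162.5 CPM with rhSema3C. The lowest and the highest of the 6 values were both from treated samples. The log2 fold change was 0.075 (SE 0.072, adjusted p = 0.382 in edgeR). Without rhSema3C replicate 2 it was -0.0077, and with library size alone as the scaling it was 0.18 with an adjusted p of 0.0474, so no direction can be given for PLOD2.

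Within the family, PLOD2 took 22.9%, 19.8% and 20.03% of the summed FPKM of the 3 lysyl hydroxylases with PBS against 24.0%, 30.0% and 26.5% with rhSema3C. Its share was therefore higher in every treated sample, although its own level did not pass the test. The mean shift was 5.90 percentage points, and that of PLOD1 was -4.61 (exact permutation tests, two-sided p = 0.1 each, the smallest p possible). The summed FPKM of the family was 91.5 ± 2.15 with PBS and 80.7 ± 0.583 with rhSema3C (SD, n = 3 per group).

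LOX (ENSG00000113083, chr5:122063195-122078259, minus strand) encodes the founding lysyl oxidase, secreted as a proenzyme that BMP1 cleaves. It had 46.5, 45.1 and 50.01 CPM with PBS, samples 1 to 3, and 98.2, 99.5 and 94.5 CPM with rhSema3C. The lowest treated sample lay far above the highest control. Mean CPM was 47.2 ± 2.54 with PBS and 97.4 ± 2.57 with rhSema3C (SD, n = 3 per group), which is 2.06-fold higher. On the log2 scale the rise was 1.05 (SE 0.052, adjusted p = 3.69e-08 in edgeR), which is within 1 standard error of the 2-fold line. With each sample left out in turn it ranged from 1.01 to 1.09.

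LOXL2 (ENSG00000134013, chr8:23296897-23425291, minus strand), a crosslinking enzyme with scavenger receptor domains, had the highest FPKM of the 10 genes in every sample. Its FPKM was 112.3, 120.5 and 118.9 with PBS against 104.6, 95.4 and 97.5 with rhSema3C. In CPM it was 744.3 ± 29.9 with PBS and 586.5 ± 29.7 with rhSema3C (SD, n = 3 per group), with no overlap between the groups. LOXL2 fell by 0.34 on the log2 scale (SE 0.048, adjusted p = 8.91e-05 in edgeR).

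LOXL1 (ENSG00000129038, chr15:73925989-73952137, plus strand), best known for its part in elastic fibres, had 21.8, 21.7 and 17.1 CPM with PBS against 13.1, 15.2 and 15.6 CPM with rhSema3C. PBS sample 3 lay nearer to the treated samples than to the other controls. LOXL1 fell by 0.47 on the log2 scale (SE 0.11, adjusted p = 0.00388 in edgeR). LOXL3 (ENSG00000115318, chr2:74532258-74553961, minus strand) and LOXL4 (ENSG00000138131, chr10:98247690-98268194, minus strand) were expressed at a low level, between 0.836 and 1.46 FPKM in all samples. LOXL3 had a log2 fold change of 0.092 (SE 0.14, adjusted p = 0.593 in edgeR) with overlapping groups. LOXL4 had a log2 fold change of -0.32 (SE 0.15, adjusted p = 0.0851 in edgeR), and its groups overlapped in FPKM but not in CPM, where treated samples had 3.79 to 4.38 and controls 4.43 to 5.61. Non-overlap in CPM was found in 67.8% of all genes tested.

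The calls for LOXL1, LOXL2 and PLOD3 were lost with limma on FPKM rescaled to TPM, where the log2 fold changes were -0.22, -0.12 and -0.12 and the median of all genes tested moved from 0.02 to 0.23. The rises of P4HA1, P4HA2 and LOX and the fall of PLOD1 passed in each of the 17 fits.

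LOX made up 6.19%, 5.59% and 6.36% of the summed FPKM of the 5 lysyl oxidases with PBS against 13.9%, 15.1% and 14.3% with rhSema3C. LOXL2 remained the largest part, at 88.4% ± 0.469 with PBS and 80.5% ± 0.980 with rhSema3C (SD, n = 3 per group). The shift was 8.39 percentage points for LOX and -7.83 for LOXL2 (exact permutation tests, two-sided p = 0.1 each, the smallest p possible). The family's summed FPKM was 132.6 ± 4.25 with PBS and 123.1 ± 4.50 with rhSema3C (exact permutation test, two-sided p = 0.2), with overlap between the groups. The total depends on the measure, since in CPM per kilobase of the longest coding transcript it was 230.1 ± 8.32 with PBS and 192.9 ± 7.91 with rhSema3C, without overlap (SD, n = 3 per group). With lengths of the longest coding transcripts, LOX made up 4.02% of the family with PBS and 9.90% with rhSema3C.

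In the PBS samples the order of the 10 genes by FPKM was LOXL2, P4HA2, PLOD1, PLOD3, PLOD2, P4HA1, LOX, LOXL1, LOXL4 and LOXL3, and no neighbours in this order overlapped between samples. In the rhSema3C samples P4HA1 stood above PLOD1 and below P4HA2, with 41.0 ± 0.716 against 35.2 ± 2.41 FPKM (SD, n = 3 per group), and PLOD3 and PLOD2 overlapped. This order depends on the length used. Per kilobase of the longest coding transcript, the means with rhSema3C were 44.1 CPM for P4HA1 and 62.9 CPM for PLOD1. P4HA1 thus stayed below PLOD1. Means of LOXL2 and P4HA2 were 209.7 and 135.0 with PBS but 165.3 and 166.8 with rhSema3C. With rhSema3C these 2 genes overlapped, LOXL2 lying between 159.0 and 174.8 and P4HA2 between 163.3 and 170.7, so neither was clearly the highest. On that scale LOX and LOXL1 overlapped with PBS, at means of 9.25 and 8.60 CPM per kilobase, and were apart with rhSema3C, at 19.1 and 6.22.

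Since prolyl hydroxylase and LOX are known hypoxia genes, the promoters of the members that rose, and of PLOD2 as the known hypoxia gene that did not pass, are shown with the core letters of the hypoxia response element. Sequences are the 250 bases before a start given by RefSeq on GRCh38.p14, 5′ to 3′ on the strand of the gene. Where RefSeq gave several starts, the one nearest the gene start in the deposited table was used. Matches to ACGTG or GCGTG on either strand are in capitals, and matches that overlap, as in an E-box, were counted once.
P4HA1: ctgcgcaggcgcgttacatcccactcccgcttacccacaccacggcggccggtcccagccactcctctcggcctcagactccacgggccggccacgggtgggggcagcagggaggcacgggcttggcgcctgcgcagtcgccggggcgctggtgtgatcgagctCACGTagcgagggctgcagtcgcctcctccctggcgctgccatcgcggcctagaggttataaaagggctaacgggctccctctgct
P4HA2: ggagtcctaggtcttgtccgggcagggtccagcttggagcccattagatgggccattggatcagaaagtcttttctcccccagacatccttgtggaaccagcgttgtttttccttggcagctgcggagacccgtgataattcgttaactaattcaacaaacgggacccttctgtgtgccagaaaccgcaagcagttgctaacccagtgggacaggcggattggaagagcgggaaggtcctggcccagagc
LOX: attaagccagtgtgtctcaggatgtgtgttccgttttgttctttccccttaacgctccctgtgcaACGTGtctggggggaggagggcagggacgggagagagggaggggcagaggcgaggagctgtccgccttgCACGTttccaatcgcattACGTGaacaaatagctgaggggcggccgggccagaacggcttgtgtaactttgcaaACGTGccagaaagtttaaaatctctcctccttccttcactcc
PLOD2: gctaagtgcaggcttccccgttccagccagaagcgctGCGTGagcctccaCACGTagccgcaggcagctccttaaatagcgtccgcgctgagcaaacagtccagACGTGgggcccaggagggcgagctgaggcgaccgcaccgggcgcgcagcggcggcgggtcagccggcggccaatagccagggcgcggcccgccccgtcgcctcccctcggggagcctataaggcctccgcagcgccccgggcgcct
They lie at chr10:73096867-73097116 for P4HA1, chr5:132227092-132227341 for P4HA2, chr5:122078260-122078509 for LOX and chr3:146161185-146161434 for PLOD2, all on the minus strand. The start of P4HA2 in RefSeq is 68224 bases inside the gene as the deposited table draws it, while that of P4HA1 is 108 bases inside.

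LOX has 3 starts in RefSeq and LOXL3 has 2, and only the chosen start of each is described. The LOX promoter at that start held 4 matches, at 185, 116, 98 and 42 bases before it. Of 14421 promoters of genes tested, with every start counted, 2.84% held 4 or more. P4HA1 held 1 match, 86 bases before the start, and PLOD2 held 3, whereas P4HA2 held none in this window. Of the 9 members with a promoter in the reference, 4 held a match, the fourth being PLOD1, which fell, beside 55.6% of the promoters of genes tested. LOXL2, also named above as a known target of hypoxia-inducible factors but lower here, had no entry.

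Among 13 other hypoxia genes, 12 were tested, of which 11 were higher and 1 lower, with a median log2 fold change of 0.80 beside 0.02 over all genes tested. NDRG1 rose most, by 2.45 (SE 0.084), followed by the growth factor gene VEGFA, by 1.42 (SE 0.051), and the gene that was lower was ADM, which passed in 5 of 17 fits and was above 0 with limma on log2(TPM + 1). The part of hypoxia signalling in the rises of P4HA1 and LOX was not tested. Of the 5 hydroxylases that act on hypoxia-inducible factors or resemble those that do, EGLN1 rose by 0.52 (SE 0.060), EGLN2, HIF1AN and P4HTM were lower, with values from -0.63 to -0.46, and EGLN3 lay below the filter.

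Stellate cell activation genes were mostly lower. In this list 14 of 15 genes fell and none rose at an adjusted p below 0.05, with a median log2 fold change of -0.85. TAGLN and CCN2 fell most, with log2 fold changes of -2.70 (SE 0.063) and -2.40 (SE 0.045), and PDGFRB had 0.094 (adjusted p = 0.321).

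Of the main substrates, COL1A1 and COL3A1 also fell. COL1A1, the alpha 1 chain of type I collagen, had a log2 fold change of -0.78 (SE 0.054) and COL3A1 of -0.36 (SE 0.044). COL1A2 was near 0 in all samples, with an FPKM of 0.130 in PBS replicate 1 and 0.125 in rhSema3C replicate 1. Of the 4 fibrillar collagen genes tested, the only other call was a small rise of COL5A2, by 0.11 (adjusted p = 0.0314), which passed in 10 of 17 fits. COL5A2 had an FPKM of 78.4, 79.0 and 81.5 with PBS and 93.6, 90.9 and 91.5 with rhSema3C. The summed FPKM of COL1A1, COL1A2 and COL3A1 was 111.4, 119.3 and 125.7 with PBS against 82.3, 78.5 and 76.5 with rhSema3C, with every treated sample below every control. Over all 6 fibrillar collagens listed the fall was smaller, from 202.5, 212.8 and 221.0 to 191.9, 184.7 and 183.9.

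Relative to this collagen sum, 9 of the 10 enzymes were higher in every rhSema3C sample than in every PBS sample, and LOXL1 overlapped. The same was true of 80.4% of all genes tested, whose log2 ratio rose by a median of 0.71, so 9 of 10 is near the background. P4HA1 and LOX exceeded that median, with rises of 1.88 and 1.74 on the log2 scale, and P4HA2 rose by 0.99. PLOD2 with 0.76 and LOXL3 with 0.78 were near it. LOXL2 with 0.34, PLOD1 with 0.26, PLOD3 with 0.34, LOXL4 with 0.37 and LOXL1 with 0.23 were below it. The collagen sum leaves out COL5A1 and COL5A2, which did not fall, so a sum that held them would give smaller rises. Whether the groups would stay apart with such a sum was not tested. For LOX the log2 ratio was -3.82, -3.97 and -3.88 with PBS against -2.20, -2.11 and -2.15 with rhSema3C (exact permutation test, two-sided p = 0.1, the smallest p possible).

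The other enzymes and chaperones that modify or fold collagen in the endoplasmic reticulum mostly fell or did not pass the test. Of 12 genes tested from a list of 14, 1 was higher and 6 lower, with a median log2 fold change of -0.19. SERPINH1, the collagen chaperone HSP47, and P3H3, a prolyl 3-hydroxylase family member, fell most, with log2 fold changes of -0.62 (SE 0.046) and -0.56 (SE 0.040). The only gene that rose was TMEM38B, a potassium channel of the endoplasmic reticulum, by 0.26 (SE 0.053). FKBP10, a chaperone that works with PLOD2, had -0.090 (adjusted p = 0.0732).

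Among genes of procollagen export and propeptide cleavage, 8 of 12 were tested, of which 5 were higher and 2 lower, with a median log2 fold change of 0.41. ADAMTS14, a procollagen N-proteinase, rose by 1.17 (SE 0.16) and MIA2, which acts at endoplasmic reticulum exit sites, by 0.96 (SE 0.091). TLL1, a proteinase related to BMP1, fell by 1.74 (SE 0.17), and BMP1 itself, which activates LOX, had -0.34 (SE 0.059).

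Lysyl oxidases receive copper in the secretory pathway from the transporter ATP7A. In the list of lysyl oxidase partners and copper supply, 7 of 9 genes were tested, of which 2 were higher and 3 lower, with a median of -0.16. The copper importer SLC31A1 rose by 0.59 (SE 0.051) and ATP7A by 0.44 (SE 0.083), whereas EFEMP2, the fibulin that binds LOX, fell by 0.53 (SE 0.047), and the copper chaperone ATOX1 fell by 0.44 (SE 0.093). Genes that supply cofactors to the hydroxylases were split, with 4 of 8 higher, 4 lower and a median of -0.031. In that list IDH1, which makes 2-oxoglutarate, rose by 0.98 (SE 0.039), and FTH1 by 0.34 (SE 0.040). GSTO1, which can reduce dehydroascorbate, fell by 0.46 (SE 0.044) and FTL fell by 0.30 (SE 0.045).

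Whether the counting used strand is not given in the sources used here, so genes that overlap a member may share reads with it. LOX overlaps SRFBP1 on the other strand, which rose by 0.55 (SE 0.10), but only 138 of the 5547 exonic bases of LOX are shared and SRFBP1 had fewer counts, between 691 and 1671. LOXL3 shares 14.3% of its exonic bases with HTRA2, whose counts of 3962 to 5176 are far above those of LOXL3, 286 to 421, so the level of LOXL3 is uncertain. LOXL1 shares 335 exonic bases with LOXL1-AS1, and PLOD3 shares 429 with ZNHIT1, which fell by 0.64 (SE 0.050). Exonic bases are those of GENCODE 29, whose bounds differ from the deposited ones for all members except LOXL1, P4HA1 and P4HA2. By the deposited positions PLOD3 and ZNHIT1 overlap by only 202 bases. LOXL3 also overlaps DOK1, and LOXL2 overlaps ENTPD4 and AC090197. For P4HA2, exonic overlap was found with P4HA2-AS1, which had at most 15 counts in any sample, and not with PDLIM4, SLC22A4 or AC063976. LOXL4 overlaps AL139241 and PLOD2 overlaps AC107021, each with at most 12 counts. For P4HA1 and PLOD1 the table listed no overlapping gene.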

How the data were processed

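RNA of 3 PBS-treated and 3 rhSema3C-treated LX-2 samples was sequenced. For differential expression, the methods of the study cite Cufflinks with cuffmerge. Per gene and sample, the authors deposited whole-number counts, not normalised, and FPKM values scaled to gene length and library size. The aligner, counting tool, strand setting and genome build are not given in the sources used here, and gene positions lie on GRCh38. Samples were grouped by their labels, and 0 columns of sample values went unused.

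Genes were kept where FPKM averaged 0.5 or more over the samples, and their counts were tested with edgeR 4.0.16 (quasi-likelihood test, TMM factors between 0.958 and 1.04, R 4.3.3), with p-values adjusted over all 14178 genes by the Benjamini-Hochberg method. Standard errors were derived from the F statistic. Shares and ratios used exact two-sided permutation tests over samples. The common biological coefficient of variation was 0.117. Between 3.73% and 5.42% of counts came from mitochondrial genes, lower in the rhSema3C samples. Chi-square tests of counts between samples of the same group gave 13.5 to 22.1 per degree of freedom, above counting noise, so none was a duplicate. The test was tried on simulated counts with known changes.

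Members and gene lists were chosen with earlier results of these data known. Named genes were the members, the 2 largest rises and 2 largest falls past the test in each list, genes used in a ratio, genes overlapping a member, and the 5 nearest profiles to LOX and P4HA1. Others, named for their role or because a count of 5 or fewer needed them, were chosen after their values were seen. Alternatives used limma 3.58.1, DESeq2 1.42.0, other scalings and filters, a block for replicate number, and fits without each sample. Promoters came from RefSeq, and exons and transcript lengths from GENCODE 29. No molecular identifiers are described, so counts are not counted molecules.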

Additional observations from a re-analysis of the deposited data

How the results depend on the processing

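The counts of 3 members higher and 4 lower held within 1.5 times in all alternatives except limma on log2(TPM + 1), where 1 was lower. Of all genes, the adjusted test called 4490 up and 4339 down, which became 6934 and 2428 with TPM and 2603 and 2621 when FPKM had to average 5. By the fold rule, 485 were higher and 300 lower, which became 1284 and 726 with no filter, 165 and 74 when FPKM had to average 5, and 173 and 76 with limma on log2(FPKM + 1). The lower genes by this rule became 182 with limma on log2(FPKM + 0.1) and 95 with TPM. PLOD2 was the only member whose sign changed, at -0.0077 without rhSema3C replicate 2, and leaving out each sample gave -0.0077 to 0.15. It passed with library size alone, TPM and the FPKM minimum of 5, with log2 fold changes of 0.18, 0.29 and 0.18. The cause of these changes was not tested.

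The replicate block left 4221 genes higher and 4120 lower and changed no call among the members, where P4HA1 and LOX both remained higher. No effect shared by same-numbered samples was seen, as their deviations correlated between -0.092 and -0.037. Of 6 samples, 0 correlated best with their own number. With 3 samples per group this cannot show whether the cultures were handled in pairs. Family shares separated the groups in 8 members, and in 8 to 9 with each sample left out. Shares in a family have a fixed sum, so these members do not count separately. P4HA1 and P4HA2, for example, moved by 13.2 points in opposite directions. In CPM, 67.8% of all genes tested had groups that did not overlap. For the ratio to collagen the number was 9, and between 9 and 10, beside 80.4% of all genes tested. Lengths of the longest coding transcripts, for shares and family totals an alternative chosen after seeing the data, moved the shift of LOX to 5.88 and of P4HA1 to 8.41 percentage points, and CPM in place of FPKM moved that of P4HA1 from 13.2 to 7.52. Calls in the other gene lists moved with the scaling, as for COLGALT1, IDH2 and SLC23A2, whose signs changed. The rise of COL5A2 was also lost with the replicate block and without PBS replicate 1 or 2 or rhSema3C replicate 1 or 3, and the fall of ADM with the block and without PBS replicate 2 or 3 or rhSema3C replicate 1 or 2. With 3 samples per group the exact tests cannot go below 0.1.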

Other observations

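Profiles over the 6 samples were compared with those of LOX and P4HA1 for 6852 genes whose FPKM averaged 5 or more, by the Euclidean distance between log2 CPM values centred on each gene's mean. The nearest to LOX were CSF2, LMO4, PXK, PTGS2 and SNAI2, with distances between 0.0871 and 0.0956, beside a median of 1.43 over all genes compared. CSF2 encodes the cytokine GM-CSF, PTGS2 the inducible cyclooxygenase, and SNAI2 the transcription factor Slug. CSF2 had 114.7, 112.3 and 125.5 CPM with PBS against 241.6, 232.5 and 225.8 CPM with rhSema3C. PBS replicate 3 was the highest control and rhSema3C replicate 3 the lowest treated sample in CSF2, as in LOX.

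The nearest to P4HA1 were SAT1, SLC2A3, SOD2, ACAT2 and CYP51A1, with distances between 0.0901 and 0.116, beside a median of 1.61. SLC2A3 encodes a glucose transporter, SOD2 the mitochondrial superoxide dismutase, SAT1 an enzyme of polyamine breakdown, and ACAT2 and CYP51A1 enzymes of sterol synthesis. SLC2A3 had 99.9, 97.1 and 94.7 CPM with PBS and 228.8, 223.2 and 230.5 CPM with rhSema3C. The distance between LOX and P4HA1 themselves was 0.272, so neither was among the nearest profiles of the other. With 2 groups of 3, such a distance is set mainly by the size of the difference between the groups.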
